A study of Mus musculus with 18 samples.

Results

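Tmem57, now named Maco1, was 1 of 76 genes targeted in a pooled CRISPR knockout library, and its 3 sgRNAs were followed in all 18 libraries of the experiment. The members were the rows of the count table that carry this gene name, and the gene had been chosen because its sgRNAs were scarcer under IgA. It was selected on the IgA minus vehicle values of its sgRNAs, which are therefore given as a description, without a test. The library held 252 sgRNAs, 3 for each gene and 24 non-targeting, in lenti-Guide-Puro. It was carried by sensBa/F3 cells, a derivative of Ba/F3, a mouse pro-B cell line that depends on interleukin-3, in 2 backgrounds. ITPK1-WT cells were the parental cells, and ITPK1-KO cells were a pool of 6 clones with a deleted ITPK1 gene and no lentiviral integration. ITPK1 phosphorylates inositol phosphates. Each background was transduced once, cultured for 10 days and stained, ITPK1-WT with CellTrace violet and ITPK1-KO with CellTrace yellow. Both were mixed 1 to 1, and 20000000 cells were injected into the peritoneum of each of 8 hCD89-transgenic mice, which carry the human Fc receptor for IgA. Mice 1 to 4 received PBS (vehicle) and mice 5 to 8 received IgA against human Her2. After 16 h the viable cells were washed out of the peritoneum and sorted by dye, which gave 16 recovered libraries, and each background gave 1 library from before injection. Dye and genotype cannot be told apart, and a p-value measures only the spread between mice that received the same transduced pool. The comparison of the arms addresses which targeted genes alter survival under IgA, and that of the backgrounds whether ITPK1 matters for it.

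Macoilin is a conserved protein that spans the membrane of the endoplasmic reticulum several times. It is known mainly from neurons, and worms that lack it show altered neuronal excitability and behaviour. In a pooled screen, an sgRNA that becomes scarcer marks cells that were lost or grew less than the other cells of the pool, and the readout is a share of the pool and not a count of living cells. Fewer surviving cells and slower growth of the cells with an sgRNA cannot be told apart in it.

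The targeting sequences of all 3 sgRNAs are shown because their fitted IgA differences were not of the same size. They are written 5′ to 3′, and the capitals mark the 12 bases at the 3′ end, next to the PAM, where pairing with the target matters most for cutting.
Tmem57 sg-1: atccttatACACCACAACGG
Tmem57 sg-2: gagcagcaAACGGTCGACAA
Tmem57 sg-3: agttccgaTTTGAATACCTG
All were 20 bases long. Bases G and C made up 45% of sg-1, 55% of sg-2 and 40% of sg-3, against a median of 50% over the targeting sgRNAs of the library. None held a run of 4 T, which can end transcription of an sgRNA early. The nearest other sgRNA of the library differed at 8 bases from sg-1, at 8 from sg-2 and at 9 from sg-3, so that reads of these sgRNAs are well separated. Where in the gene they cut was not analysed here.

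The libraries held 317564 to 808586 reads, with a median of 1326 to 3311 reads per sgRNA. The reads of the Tmem57 trio had a counting error of 1.05 to 1.59% per library. The coefficient of variation between the 4 mice of a group was 1.13 to 2.50%. Over all sgRNAs, no 2 libraries of a group were as alike as counting alone would make them (chi-square over its degrees of freedom, 2.24 to 5.62). All vehicle libraries came from 2000000 sorted cells, whereas those of the IgA mice came from 657000 to 2000000. The sgRNAs against Itpk1 itself, which find no intact target in ITPK1-KO cells, were higher in the ITPK1-KO libraries of vehicle mice by 1.74 on the log2 scale, the direction that the labels give.

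The Tmem57 trio made up a smaller part of the pool in every IgA mouse than in any vehicle mouse, in both backgrounds, and the gap was wider in ITPK1-KO cells. Levels are given as normalised CPM (reads scaled to a common library size), summed over the 3 sgRNAs. In ITPK1-WT cells the level was 10073, 10377, 10252 and 10633 in vehicle mice 1 to 4 and 9791, 9396, 9979 and 9746 in IgA mice 5 to 8. The means were 10334 ± 235 and 9728 ± 243 (SD, n = 4 mice each). The arms did not overlap, with mouse 6 the lowest of all, but the highest IgA mouse lay close to the lowest vehicle mouse. Of all 76 genes, 34.2% had arms that did not overlap in this background, so that the absence of overlap is common here. In ITPK1-KO cells the level was 12464, 12235, 12466 and 12859 in the vehicle mice and 11037, 10923, 11181 and 11181 in the IgA mice. The means were 12506 ± 259 and 11081 ± 125 (SD, n = 4 each). Here the arms were well apart, which 21.1% of the genes showed in this background.

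**Figure D1:**
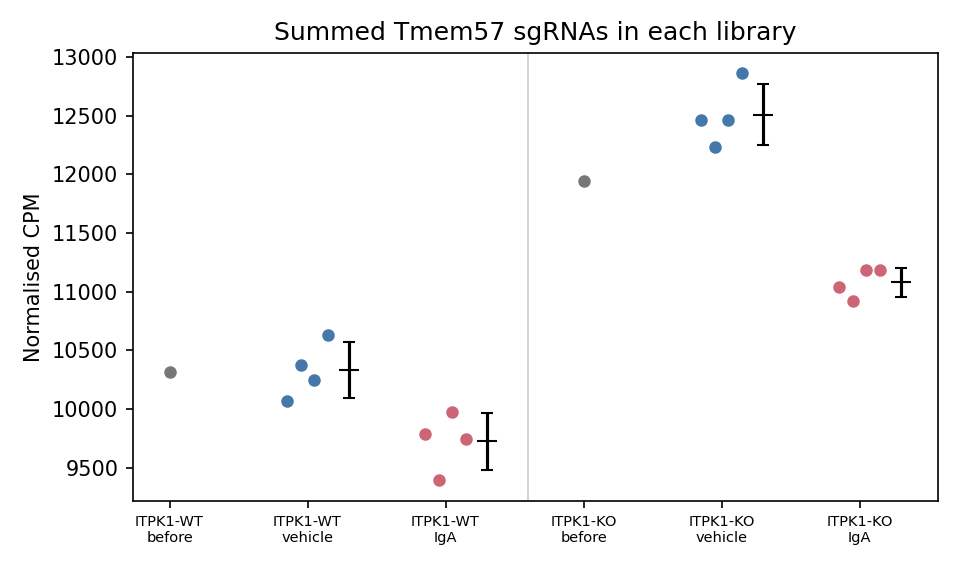
Summed normalised CPM of the 3 Tmem57 sgRNAs (vertical axis, not starting at 0) in each of the 18 libraries, by background and arm. Points are libraries, and bars are the mean and SD of 4 mice. In both backgrounds the IgA mice lie below the vehicle mice, and the ITPK1-KO libraries lie above all ITPK1-WT libraries.

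Fitted over all genes, the IgA minus vehicle difference of Tmem57 was −0.096 on the log2 scale in ITPK1-WT cells (SE 0.024, 0.936-fold) and −0.17 in ITPK1-KO cells (SE 0.019, 0.886-fold). These are the values by which the gene was chosen. In ITPK1-WT cells only Commd4, Acsl4 and Fadd had lower fitted values, which put Tmem57 at place 4 from the lowest of 76 genes, and in ITPK1-KO cells only Ripk1 and Commd4, which put it at place 3. Just beyond it lay CASP2 at −0.091 in ITPK1-WT cells and Ipmk at −0.16 in ITPK1-KO cells. The size of the ITPK1-WT value depended on the scaling between libraries. The non-targeting sgRNAs themselves had a median difference of −0.059 in ITPK1-WT cells, against −0.012 in the ITPK1-KO cells. Scaled to them, the ITPK1-WT value of Tmem57 became −0.043 and the ITPK1-KO value −0.16.

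The non-targeting reference was also taken inside each library, as the log2 ratio of an average Tmem57 sgRNA to an average non-targeting sgRNA. It is the same reference as in the scaling just given and so no separate check. In ITPK1-WT cells this ratio was −0.75, −0.70, −0.73 and −0.66 in vehicle mice and −0.76, −0.82, −0.70 and −0.71 in IgA mice. The arms overlapped, with means of −0.71 ± 0.037 and −0.75 ± 0.056 (SD, n = 4 each), while 43.4% of genes had arms that did not overlap in this ratio. In ITPK1-KO cells the means were −0.44 ± 0.024 and −0.60 ± 0.022 (SD, n = 4 each). Here the arms of Tmem57 stayed apart, as did those of 22.4% of genes. Before injection the ratio was −0.73 for ITPK1-WT and −0.49 for ITPK1-KO.

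The sgRNAs of Tmem57 did not respond alike. In ITPK1-KO cells sg-2 stood at 5063, 4841, 5274 and 5262 normalised CPM in vehicle mice and at 4351, 4238, 4366 and 4288 in IgA mice. It was low in all 4 IgA mice, with a fitted difference of −0.24 (log2). The level of sg-3 was 3963, 4091, 3996 and 4083 in vehicle mice and 3558, 3636, 3599 and 3658 in IgA mice, a difference of −0.16. Neither sg-2 nor sg-3 overlapped between the arms, against 12% of the sgRNAs fitted in this background. The level of sg-1 was 3438, 3304, 3196 and 3514 in vehicle mice and 3128, 3049, 3216 and 3235 in IgA mice, so that its arms overlapped (fitted difference −0.094).

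In ITPK1-WT cells none of the 3 sgRNAs had arms that were fully apart, whereas 22.6% of the sgRNAs in that background did. The mean level of sg-2 was 4031 ± 141 in vehicle and 3679 ± 133 in IgA mice (SD, n = 4 each), a fitted difference of −0.14 (log2). Mouse 7 stood out among the IgA mice with 3877 for sg-2, inside the vehicle range. For sg-3 the means were 3204 ± 125 and 3008 ± 68.6 (SD, n = 4 each), with a difference of −0.10. For sg-1 they were 3100 ± 139 and 3041 ± 171 (SD, n = 4 each), and the difference of −0.037 turned to 0.015 when libraries were scaled to the non-targeting sgRNAs. The authors' deposited table has the same order of the sgRNAs in both backgrounds. In the authors' deposited table, sg-1, sg-2 and sg-3 had log2 fold changes of 0.046, −0.10 and −0.062 in ITPK1-WT cells. The values in the authors' deposited table for ITPK1-KO cells were −0.072, −0.24 and −0.14. The sign of sg-1 in ITPK1-WT cells thus differed between the fit with trimmed-mean scaling and the authors' deposited table, and none of the sources used here states the scaling behind it.

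**Figure D2:**
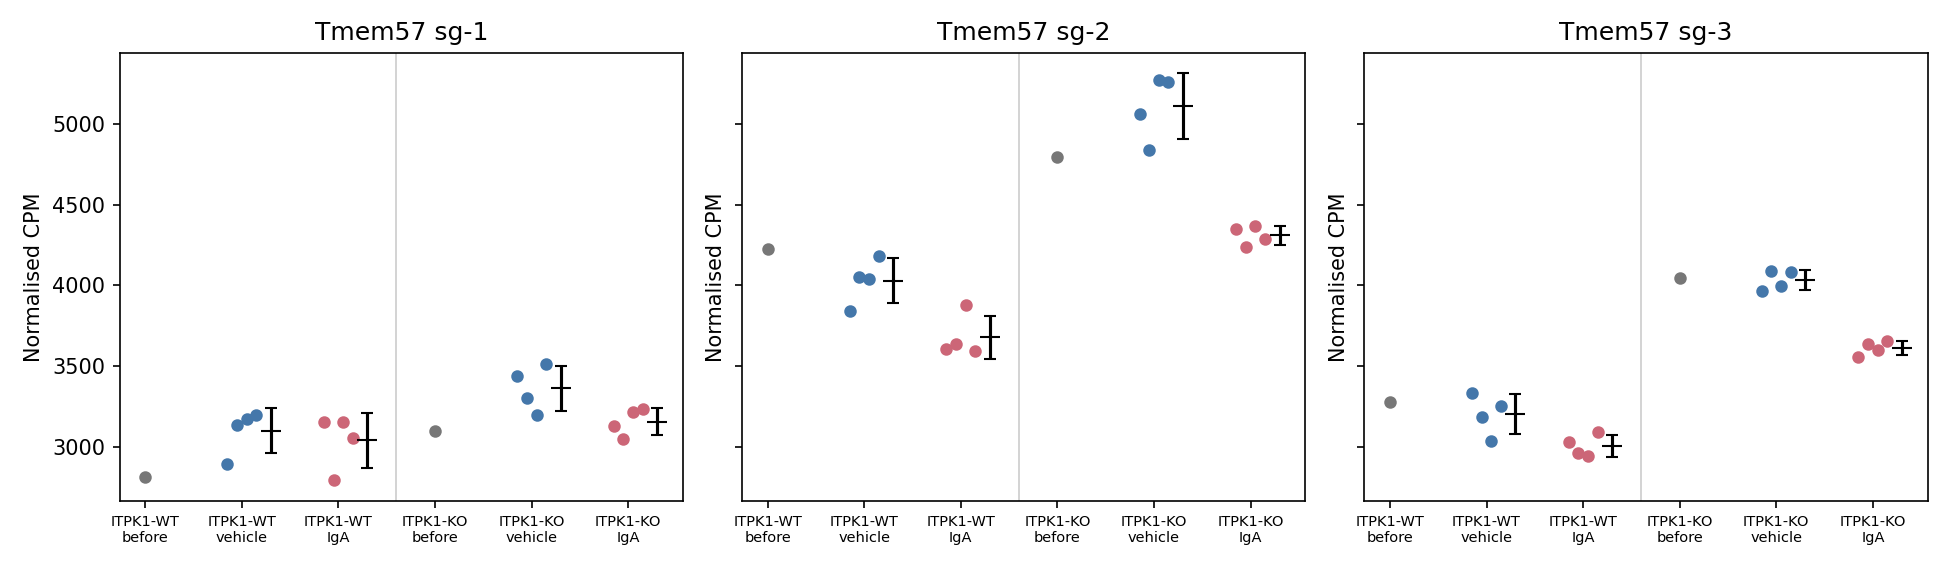
Normalised CPM (vertical axis, not starting at 0) of each Tmem57 sgRNA in each library, by background and arm, with the mean and SD of 4 mice. The arms are apart for sg-2 and sg-3 in ITPK1-KO cells and overlap for sg-1 in both backgrounds and for all 3 sgRNAs in ITPK1-WT cells.

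Within a library, the ratio of one Tmem57 sgRNA to another removes the scaling altogether. The log2 ratio of sg-2 to sg-1 in ITPK1-KO cells was 0.60 ± 0.080 in vehicle and 0.45 ± 0.033 in IgA mice (SD, n = 4 each). In ITPK1-WT cells it was 0.38 ± 0.025 and 0.28 ± 0.081 (SD, n = 4 each). The libraries from before injection had 0.63 and 0.59. On average sg-2 lost ground to sg-1 between vehicle and IgA mice by 0.15 (ITPK1-KO) and 0.10 (ITPK1-WT), but in ITPK1-WT cells the arms overlapped. For the ratio of sg-3 to sg-1 the IgA minus vehicle difference was −0.068 (ITPK1-KO) and −0.062 (ITPK1-WT). For sg-2 to sg-3 it was −0.086 and −0.041. The arms of these ratios overlapped in both backgrounds. Across the 16 recovered libraries, centred within each background, the levels of sg-2 and sg-3 varied together with Pearson's r of 0.76. The corresponding r was 0.61 for sg-1 and sg-2 and 0.39 for sg-1 and sg-3. These r values describe 16 libraries that share depth and scaling, and both arms enter them.

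Whether the IgA difference was larger in ITPK1-KO cells was examined in a joint fit. This contrast is the difference of the values by which the gene was chosen, so its p-values for Tmem57 are not independent of that choice and support nothing on their own. The difference of the IgA effects (ITPK1-KO minus ITPK1-WT) was −0.084 on the log2 scale (SE 0.031, 95% interval −0.15 to −0.021). With edgeR's quasi-likelihood test it did not pass Benjamini-Hochberg adjustment over 76 genes (adjusted p = 0.131), where 6.58% of genes were called. It passed when libraries were scaled to the non-targeting sgRNAs (−0.12, adjusted p = 0.0354, edgeR) and when both libraries of mouse 6 were left out (−0.097, adjusted p = 0.0426, edgeR). Over its other alternatives the adjusted p lay between 0.0833 and 0.531 with the same sign throughout. None of the single sgRNAs passed this test, with differences of −0.062 for sg-1 (adjusted p = 0.745), −0.11 for sg-2 (adjusted p = 0.275) and −0.062 for sg-3 (adjusted p = 0.722, all by edgeR), against 3.97% of all sgRNAs called. Ripk1, the death domain kinase downstream of TNF receptor 1, passed it with −0.19 (SE 0.031, edgeR adjusted p = 5.86e-06).

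The sgRNAs of Tmem57 also differed between the backgrounds, where they were higher in the ITPK1-KO libraries of both arms. The choice of the gene did not use this contrast. Its libraries are the same, however, so its p-values are not fully independent of that choice. Both libraries of a mouse came from the same injected mixture, so the difference was taken within each mouse. The log2 difference (ITPK1-KO minus ITPK1-WT) was 0.31, 0.24, 0.28 and 0.27 in vehicle mice 1 to 4 and 0.17, 0.22, 0.16 and 0.20 in IgA mice 5 to 8. It was above 0 in all 8 mice. The mean was 0.28 ± 0.029 in vehicle and 0.19 ± 0.024 in IgA mice (SD, n = 4 each). All vehicle mice lay above all IgA mice, a separation that 7.89% of genes showed in this measure. Comparing the arms in this way is the difference of the IgA effects again, so it is not independent of the choice of the gene.

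In vehicle mice the fitted difference was 0.28 on the log2 scale (SE 0.021, 95% interval 0.23 to 0.32, 1.21-fold), with an adjusted p of 3.51e-16 by edgeR and 8.68e-06 by limma on the mean of the sgRNAs. In this contrast 51.3% of genes were called, so that a call alone does not set Tmem57 apart. Its size put it at place 3 from the highest, behind Itpk1 and Eif5b, a translation initiation factor whose value of 0.37 had an SE of 0.058. Next below it came Acsl4, which activates long-chain fatty acids, at 0.21 (SE 0.038), and Ripk1 at 0.12 (SE 0.020). In IgA mice the difference was 0.19 (SE 0.023, 95% interval 0.14 to 0.24, 1.14-fold), with an adjusted p of 1.45e-07 by edgeR and 0.000123 by limma, where 44.7% of genes were called. It was then at place 4 from the highest, behind Itpk1, Acsl4 and Eif5b, with Bad, a BH3-only apoptosis gene, next below at 0.095 (SE 0.029). Ripk1, by contrast, stood at −0.073 in IgA mice (SE 0.023, edgeR adjusted p = 0.0119).

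The fitted values of the sgRNAs were not of the same size here either. In vehicle mice sg-1 was higher in ITPK1-KO cells by 0.12 (edgeR adjusted p = 0.0122), sg-2 by 0.34 (edgeR adjusted p = 1.92e-13) and sg-3 by 0.33 (edgeR adjusted p = 2.75e-11), so that 3 of 3 were called against 34.1% of all sgRNAs. In IgA mice sg-2 was higher by 0.23 and sg-3 by 0.27 (edgeR adjusted p = 2.96e-08 for both), while sg-1 stood at 0.059 (edgeR adjusted p = 0.370). That gave 2 of 3 called against 32.9% of all sgRNAs. Mouse 5 was the only mouse in which sg-1 was not higher in ITPK1-KO cells, at −0.012.

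**Figure D3:**
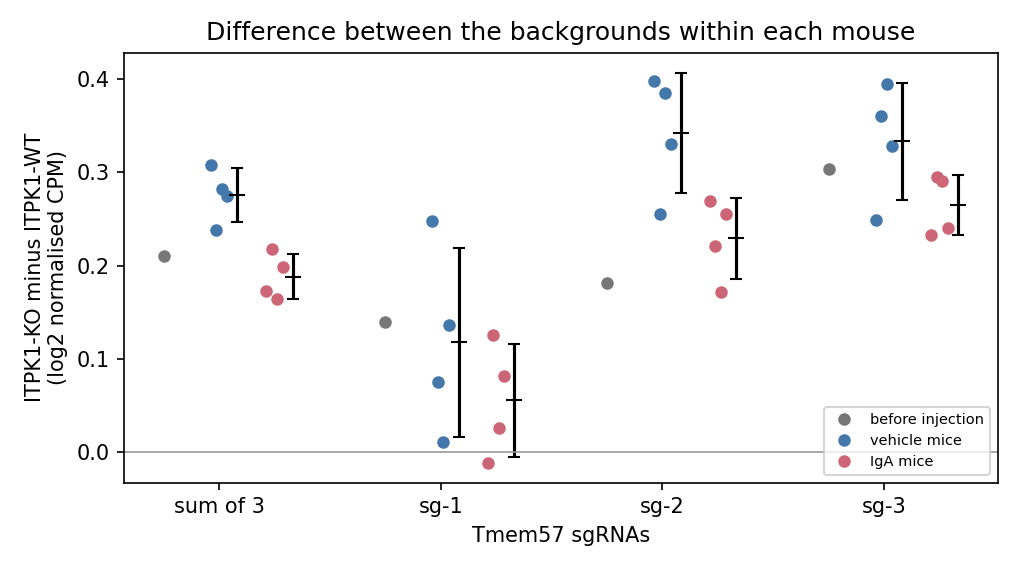
Log2 difference in normalised CPM between ITPK1-KO and ITPK1-WT cells of the same mouse, or of the libraries from before injection, for the summed Tmem57 sgRNAs and each sgRNA. Bars are the mean and SD of 4 mice. For the sum, vehicle mice lie at 0.24 to 0.31 and IgA mice at 0.16 to 0.22, and sg-1 lies below sg-2 and sg-3 on average.

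The difference between the backgrounds was there before injection. The Tmem57 trio had 5783 reads in the ITPK1-WT library, 1.03% of all reads (95% exact binomial interval 1.00 to 1.06%), and 6183 reads in the ITPK1-KO library, 1.20% (1.17 to 1.23%). These intervals cover counting error only, and each background has 1 such library, so this difference has no replicate check. In normalised CPM the levels were 10320 and 11940, a log2 difference of 0.21. That value lay below all 4 vehicle mice and above 3 of the 4 IgA mice, mouse 6 being the exception at 0.22. Relative to an average trio of non-targeting sgRNAs, the Tmem57 trio stood at 60.4% (ITPK1-WT) and 71.3% (ITPK1-KO). The median gene stood at 68.6% and 70.6%, which placed Tmem57 at rank 54 from the highest of 76 genes for ITPK1-WT and at rank 37 for ITPK1-KO.

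From that start, the mean of the Tmem57 sgRNAs was slightly up in vehicle mice and down in the ITPK1-KO cells of IgA mice, while its direction in the ITPK1-WT cells of IgA mice depended on the reference. The change is a log2 ratio of shares relative to the median non-targeting sgRNA of each library. In ITPK1-WT cells it was 0.013, 0.043, 0.015 and 0.062 in vehicle mice and −0.011, −0.067, 0.050 and 0.039 in IgA mice. These arms overlapped. As plain shares of all reads, with no non-targeting reference, the ITPK1-WT mean was −0.068 ± 0.041 in IgA mice (SD, n = 4), with every mouse below its start (−0.13 to −0.028), and 0.014 ± 0.036 in vehicle mice (SD, n = 4). Relative to the median non-targeting sgRNA again, the change in ITPK1-KO cells was 0.049, 0.035, 0.053 and 0.065 in vehicle mice. In IgA mice it was −0.12, −0.13, −0.087 and −0.090. All vehicle mice were above and all IgA mice below their start there. These values all share the 1 ITPK1-KO library from before injection, so they are not independent of one another. In the ratio to the non-targeting sgRNAs, 22.4% of genes had arms apart in this background. For the change from before injection that share was not computed. Ranked among 76 genes from the lowest, Tmem57 was at place 73 in ITPK1-KO vehicle mice and at place 8 in ITPK1-KO IgA mice. In ITPK1-WT cells it was at place 43 and place 11, with the median gene at 0.029 (vehicle) and 0.076 (IgA).

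**Figure D4:**
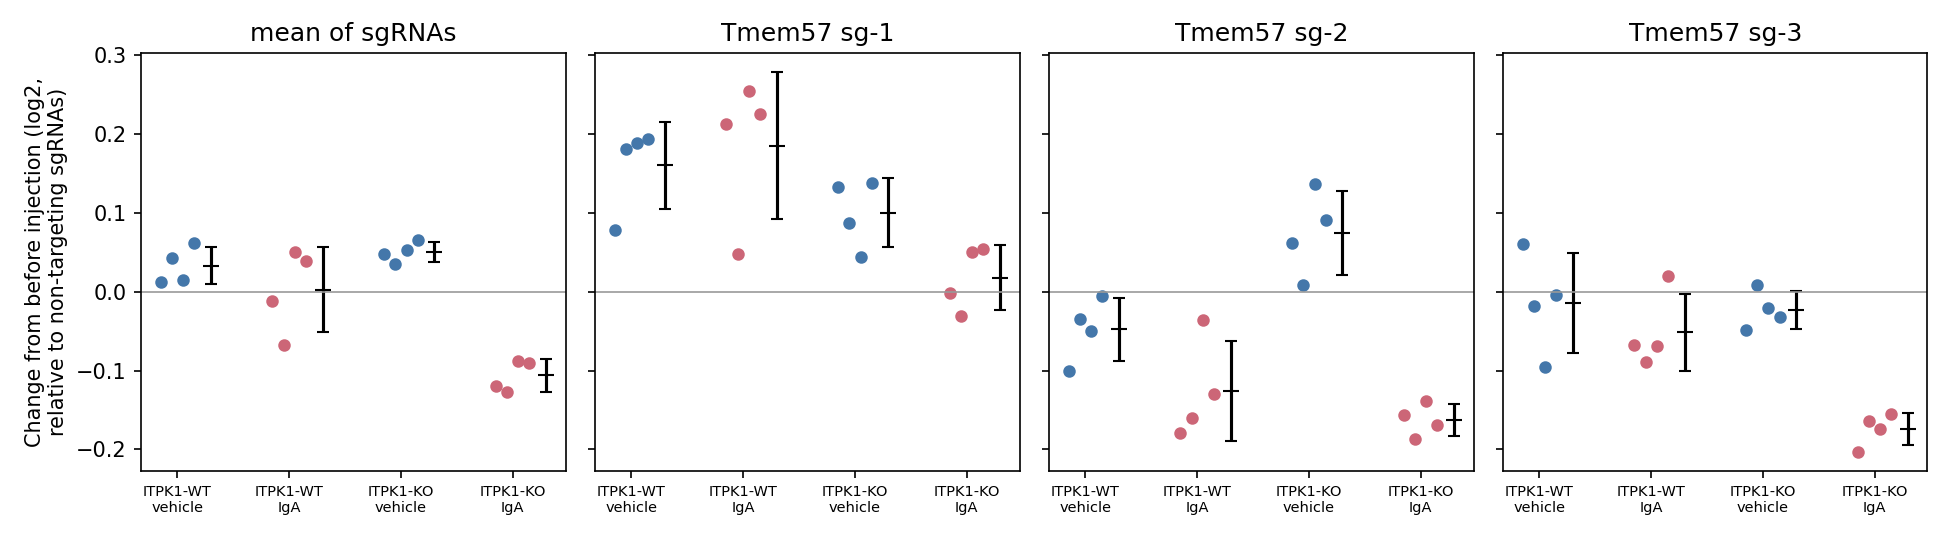
Log2 change from before injection, relative to the median non-targeting sgRNA, for the mean of the Tmem57 sgRNAs and for each sgRNA, by background and arm. Points are mice, and bars are the mean and SD of 4 mice. In ITPK1-KO cells of IgA mice sg-2 and sg-3 lie between −0.20 and −0.14, while sg-1 stays near or above 0 in all groups.

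The change from before injection differed between the sgRNAs, and sg-2 and sg-1 came closer in level on average. Their log2 ratio (sg-2 to sg-1) was 0.63 (ITPK1-KO) and 0.59 (ITPK1-WT) before injection. In IgA mice its mean was 0.45 and 0.28. All changes of a background share 1 starting library. In ITPK1-KO cells of IgA mice sg-2 stood at −0.16 ± 0.020 and sg-3 at −0.17 ± 0.021 relative to their start, and sg-1 at 0.018 ± 0.042 (SD, n = 4 each). In ITPK1-WT cells sg-1 stood above its start by 0.16 ± 0.055 in vehicle and 0.19 ± 0.093 in IgA mice (SD, n = 4 each). With no non-targeting reference the order turned, with 0.14 ± 0.068 in vehicle and 0.11 ± 0.086 in IgA mice (SD, n = 4 each). Of the recovered libraries, the sg-1 value relative to the non-targeting sgRNAs was below its start in 2, those of the ITPK1-KO cells of mice 5 and 6. With no such reference, both libraries of mouse 6 were below, at −0.011 (ITPK1-WT) and −0.023 (ITPK1-KO), and the ITPK1-KO cells of mouse 5 were at 0.011.

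Sequencing sample sheets were inferred from the sample numbers within the read-file names in the labels, and they divided the mice unevenly. One held mice 1 to 5 and the other mice 6 to 8 with the libraries from before injection, so that only mouse 5 gives an IgA value on the sheet of the vehicle mice. Mouse 5 stood −0.078 (ITPK1-WT) and −0.18 (ITPK1-KO) from the mean of the vehicle mice in log2 of the summed level. On the second sheet, mice 6, 7 and 8 stood −0.14, −0.049 and −0.083 from the library before injection in ITPK1-WT cells and −0.13, −0.095 and −0.095 in ITPK1-KO cells. With the sheet as a covariate the IgA minus vehicle values were −0.091 and −0.18. All mice of the second sheet received IgA, so these values rest on mouse 5 against the vehicle mice and are no separate check. The number of sorted cells also went with the arm. IgA mice 5 to 8 gave 1200000, 2000000, 1000000 and 657000 sorted ITPK1-WT cells and 1670000, 2000000, 1500000 and 955000 ITPK1-KO cells. The smallest of these still corresponds to 6417 cells with a Tmem57 sgRNA at its share of the reads, and the part of cell number in the result was not tested.

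By Pearson's r over the 16 recovered libraries, centred within each background, the genes most like Tmem57 among the other 75 were Ripk1 (r = 0.89), Tnfaip8l1 (r = 0.74), Alox15 (r = 0.71), Commd4 (r = 0.68) and Hoxa3 (r = 0.63). Least like it were Hspbap1 (r = −0.86) and Cyld (r = −0.84). Both arms enter this measure, so that a difference between the arms shared with Tmem57 raises r, and libraries share their scaling. Within the 8 ITPK1-KO libraries alone the r for Ripk1 was 0.96, and within the 8 ITPK1-WT libraries it was 0.65. In the ITPK1-WT libraries Alox15 (r = 0.83), Tnfaip8l1 (r = 0.79) and Commd4 (r = 0.72) were more like Tmem57 than Ripk1 was. So were Zbp1 (r = 0.70), Fadd (r = 0.69) and Jph3 (r = 0.66). Hoxa3 was less like Tmem57 there (r = 0.11).

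The likeness covers differences of unlike size. Ripk1 stood at −0.26 (SE 0.022) between IgA and vehicle in ITPK1-KO cells and at −0.072 (SE 0.021) in ITPK1-WT cells, the same order as Tmem57. Commd4, a COMM domain protein, had the opposite order, with −0.25 (SE 0.030) and −0.51 (SE 0.026). Alox15, a lipoxygenase that oxidises polyunsaturated fatty acids, was at −0.033 and −0.053 in these backgrounds. Hoxa3, a homeobox transcription factor, was at −0.061 and −0.032. Tnfaip8l1 was at −0.043 and −0.045. Scaled to the non-targeting sgRNAs, the ITPK1-WT values of Hoxa3 and Tnfaip8l1 became positive, at 0.020 and 0.0069, and that of Alox15 came to −0.00087. Hspbap1, which binds a small heat shock protein, stood at 0.24 (SE 0.023) and 0.22 (SE 0.018).

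**Figure D5:**
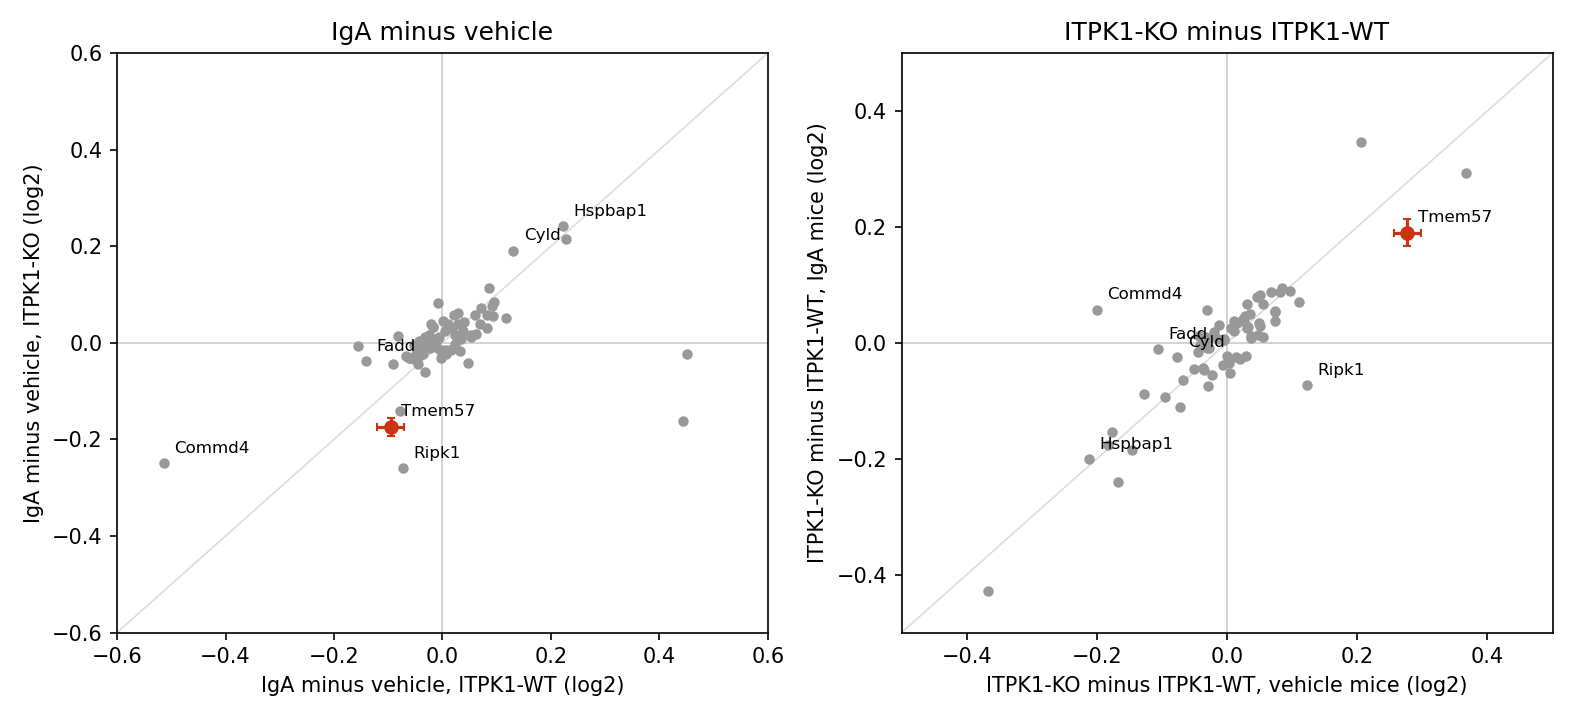
Fitted log2 differences of the 76 genes, with Tmem57 in red with its SE. Left, IgA minus vehicle in ITPK1-WT (horizontal) and ITPK1-KO cells (vertical). Right, ITPK1-KO minus ITPK1-WT in vehicle (horizontal) and IgA mice (vertical), where 5 genes lie outside the axes. Tmem57 lies at −0.096 and −0.17 on the left, and at 0.28 and 0.19 on the right, away from most genes.

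Few genes of macoilin's own surroundings were in the library. Of 20 genes of the endoplasmic reticulum and its stress response, 1 was present, Casp12, a caspase of that organelle. Its difference between IgA and vehicle was 0.017 in ITPK1-WT (edgeR adjusted p = 0.423) and 0.031 in ITPK1-KO cells (edgeR adjusted p = 0.224), where 36.8% and 13.2% of genes were called. Scaled to the non-targeting sgRNAs, the ITPK1-WT value was 0.069 and passed (edgeR adjusted p = 0.00896). Between the backgrounds Casp12 was higher in ITPK1-KO cells by 0.082 in vehicle (edgeR adjusted p = 7.32e-05) and by 0.088 in IgA mice (edgeR adjusted p = 0.000269). The value in IgA mice was 0.046 (edgeR adjusted p = 0.0969) with scaling to the non-targeting sgRNAs.

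Of 20 genes of neuronal excitability and calcium handling, 2 were present. Kcnip1, which binds voltage-gated potassium channels, was higher under IgA by 0.071 in ITPK1-WT (SE 0.022, edgeR adjusted p = 0.0126) and by 0.072 in ITPK1-KO cells (SE 0.019, edgeR adjusted p = 0.0119), the opposite direction to Tmem57. Jph3, a junctophilin that ties the endoplasmic reticulum to the plasma membrane, was lower in ITPK1-WT cells at −0.044 (SE 0.017, edgeR adjusted p = 0.0494), and stood at 0.0079 with scaling to the non-targeting sgRNAs. In ITPK1-KO cells Jph3 stood at 0.0027 (edgeR adjusted p = 0.909).

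Of 21 genes of TNF receptor signalling, a death pathway that holds the gene most like Tmem57 over the 16 recovered libraries, 8 were present. Under IgA in ITPK1-WT cells 3 of 8 were higher, namely Tnfrsf1a (0.061), the deubiquitinase Cyld (0.13) and its partner Spata2 (0.12). In the same contrast 2 of 8 were lower, Ripk1 (−0.072) and the adaptor Fadd (−0.14), and 3 were not called (edgeR, adjusted over 76 genes). These 5 of 8 stand against 36.8% of all genes. The call of Ripk1 was lost with scaling to the non-targeting sgRNAs (−0.020, edgeR adjusted p = 0.492). In ITPK1-KO cells 1 of 8 was higher, Cyld (0.19), and 1 was lower, Ripk1 (−0.26), against 13.2% of all genes called. Scaling to the non-targeting sgRNAs added Tnfrsf1a to the higher ones there (0.073, edgeR adjusted p = 0.0349). The list's median was −0.025 (ITPK1-WT) and 0.015 (ITPK1-KO), against −0.0033 and 0.0071 over all genes. Between the backgrounds, 2 of 8 were higher in ITPK1-KO cells of vehicle mice, Ripk1 and Birc2 (0.12 and 0.068), and 3 were lower, Cyld, Spata2 and Fadd (−0.076, −0.17 and −0.11), against 51.3% of all genes called. In IgA mice 1 was higher, Birc2 (0.087), and 2 were lower, Ripk1 and Spata2 (−0.073 and −0.24), so that of these 8 genes only Ripk1 changed its sign between the arms with a call in both. The share of all genes called in IgA mice was 44.7%. With scaling to the non-targeting sgRNAs the Birc2 call in IgA mice was lost (0.046, edgeR adjusted p = 0.0989), and Tnfrsf1a was called lower (−0.088, edgeR adjusted p = 0.00505).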

How the data were processed

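Per the series description, reads with mismatches to the reference library were removed by the authors and sgRNAs were scored with MAGeCK 0.5.6 (RRA). The main table holds the raw read counts per sgRNA and library that the authors deposited, with no normalization. The authors' deposited tables of log2 fold changes per sgRNA were used only for the values credited to them. The arm of each mouse and the number of cells sorted were read from the deposited sample legend.

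The gene, its comparisons and the gene lists were chosen with earlier results of these data known. Counts of sgRNAs averaging 10 or more reads were summed per gene and scaled by the trimmed mean of M values. They were tested with edgeR 4.0.16 (quasi-likelihood, R 4.3.3), adjusted over 76 genes by Benjamini-Hochberg at 0.05. Single sgRNAs were fitted likewise. Alternatives used limma 3.58.1 (prior count 2), DESeq2 1.42.0, other scalings, filters and sets of libraries. Changes from before injection had 0.5 reads added. Figures used matplotlib. The procedure was tested on simulated data.

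Named genes were Tmem57, the 5 genes most and the 2 least like it, Commd4, Ripk1, Hspbap1 and Itpk1, and members of the lists. Genes next to Tmem57 in rank were named after their values were seen. Mouse numbers pair both libraries of a mouse, since they came from the same animal. Their deviations from the group means correlated with r between −0.084 and 0.26 over 238 sgRNAs.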

Additional observations from a re-analysis of the deposited data

Results flagged for a closer look

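In each group of 4 mice, a mouse was singled out when its gap to the nearest other mouse took up most of the range of the group (Dixon's test at the 95% level). Of 56 groups examined, 2 had such a mouse, about what chance gives at 1 in 20 groups. In ITPK1-WT cells of the IgA arm, mouse 7 had 3877 normalised CPM of sg-2, while the other 3 mice had 3592 to 3637. In ITPK1-WT cells of the vehicle arm, mouse 1 had a change from before injection of 0.078 (log2) for sg-1, while the others had 0.18 to 0.19.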

How the results depend on the processing

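The IgA minus vehicle value of Tmem57 kept its negative sign under all 20 alternatives run in each background, from −0.12 to −0.043 in ITPK1-WT and from −0.20 to −0.13 in ITPK1-KO cells. It moved by more than the spread between mice when ITPK1-WT libraries were scaled to the non-targeting sgRNAs (−0.043), and in the ITPK1-KO background when sg-1 (−0.20) or sg-2 (−0.13) was left out of the sum. Leaving out each mouse gave −0.11 to −0.072 and −0.18 to −0.16. The difference of the IgA effects, whose p-values are not independent of the choice of the gene and support nothing on their own, kept its sign under all 20 alternatives. It passed the test with scaling to the non-targeting sgRNAs (−0.12) and without mouse 6 (−0.097), and leaving out each mouse gave −0.097 to −0.076. With the mouse as a replicate block it was −0.083 (edgeR adjusted p = 0.0833), and the block changed no call of Tmem57. The differences between the backgrounds passed under all alternatives run, 15 in vehicle and 16 in IgA mice, at 0.23 to 0.34 and 0.15 to 0.25. With no non-targeting reference, the change from before injection was 0.066 in ITPK1-KO vehicle and −0.068 in ITPK1-WT IgA libraries.

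The sample sheet as a covariate gave 10 genes in place of 28 for IgA in ITPK1-WT, 5 in place of 10 for ITPK1-KO and 2 in place of 5 for the difference of the effects, with fewer degrees of freedom, and 32 in place of 34 between the backgrounds in IgA mice. Leaving out each mouse gave 17 (without mouse 7) to 32 genes, 9 to 13 and 4 to 6, and 23 (without mouse 5) to 33 between the backgrounds in IgA mice. Scaling to the non-targeting sgRNAs turned the split of calls for ITPK1-WT from 16 higher and 12 lower to 34 and 2, for ITPK1-KO from 6 and 4 to 11 and 3, and for the difference of the effects from 2 and 3 to 1 and 4. Between the backgrounds it went from 19 and 20 to 14 and 25 in vehicle and from 15 and 19 to 4 and 25 in IgA mice. The sheet as a covariate could not be fitted in vehicle mice, which share 1 sheet. Apart from the non-targeting scaling and the choice of mice, the cause of these shifts was not tested. The counting error of the Tmem57 sum, 1.05 to 1.59% per library, is 1 SD of counting alone. Libraries of a group differed by more than counting over all sgRNAs, so it is only a lower bound on the difference that could be seen in 1 library.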
